A study of Sus scrofa with 6 samples.

Results

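The insulin-like growth factor (IGF) and growth hormone axis was followed here through 10 genes, taken by symbol from the deposited expression table of a pig back muscle, longissimus dorsi. They are the ligands IGF1 and IGF2, the receptors GHR, IGF1R and IGF2R, the binding proteins IGFBP3, IGFBP4, IGFBP5 and IGFBP6, and the feedback inhibitor SOCS2. Of these, 7 were matched to a row among the 12671 loci of the table through their Ensembl pig gene identifiers. The other 3, IGF2, IGFBP3 and SOCS2, were matched to no row and are not analysed here. The samples were 3 libraries from female QingYu pigs at the plateau phase (PP, day 395), after growth has levelled off, and 3 at the growth inflection point (IP, day 178), when growth is fastest. QingYu (Qinyu Pig in the strain labels) is an indigenous Chinese breed, and the sources name no treatment or genetic change in either group. The age tag of the sample labels reads 178 days for all 6 libraries, whereas the growth protocol in the same labels gives the ages used here. Age and growth rate differ together between the phases and cannot be told apart.

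Growth hormone, released by the pituitary, binds GHR on liver and muscle cells, and the kinase JAK2 then activates STAT5 factors, which drive IGF1 and the feedback inhibitors CISH and SOCS2. IGF1 acts through IGF1R, the adaptor IRS1 and the kinases PI3K, AKT and mTOR to raise protein synthesis in muscle fibres. Binding proteins hold IGFs in tissue fluid and around cells, and proteases such as PAPPA and HTRA1 cleave some of them and so free the ligand. IGF2R carries IGF2 to lysosomes for breakdown and does not pass on a growth signal.

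The binding proteins belong to a family whose amino-terminal domain is held together by disulphide bonds between cysteines. The coding stretches below are shown because IGFBP5 and IGFBP6, the members that stood at opposite ends of the phase comparison, differ there. They were read from the RefSeq annotation of Sscrofa11.1 and end in all 3 genes with codons for the same 4 amino acids. Capitals mark in-frame cysteine codons, and each stretch of 78 bases (26 codons) lies within a single exon.
IGFBP4 (chr12:21979831-21979908, minus strand): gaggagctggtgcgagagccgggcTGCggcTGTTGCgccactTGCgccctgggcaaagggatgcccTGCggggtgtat
IGFBP5 (chr15:118877581-118877658, minus strand): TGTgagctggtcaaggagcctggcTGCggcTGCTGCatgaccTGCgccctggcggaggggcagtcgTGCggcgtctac
IGFBP6 (chr5:18353590-18353667, plus strand): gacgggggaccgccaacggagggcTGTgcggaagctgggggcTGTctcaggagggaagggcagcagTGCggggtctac
The stretch of IGFBP4 held 5 cysteine codons and that of IGFBP5 held 6, with 1 adjacent pair in each. The stretches were cut at a fixed length without alignment, and the first codon of the IGFBP5 stretch is one of its 6. The count of 5 against 6 thus depends on where the stretches begin and is not read as a difference between IGFBP4 and IGFBP5. In IGFBP6 it held 3 and no adjacent pair.

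Expression was deposited as TPM, a measure of transcript abundance that takes transcript length into account and gives every library about the same sum. The columns summed to 998729 to 999437 TPM, and the number of reads behind a value is not known. The assembled locus MSTRG.716 alone took 29.0% to 35.8% of the TPM in PP libraries and 21.8% to 31.9% in IP libraries. The median level of a locus was 2.98, 4.52 and 3.18 TPM in PP replicates 1, 2 and 3, and 4.69, 6.12 and 3.03 TPM in IP replicates 1, 2 and 3. The median of PP replicate 2 was thus nearest to that of IP replicate 1, and the median of IP replicate 3 lay between those of PP replicates 1 and 3. Of 12 skeletal muscle genes listed to check the tissue, 9 were matched and all 9 had at least 1 TPM in every library, with a summed level of 39174 to 63299 TPM at the PP, against 47495 to 70144 TPM at the IP. TNNC2 and MYL1, a troponin and a myosin light chain of fast fibres, were the highest of these. Of 8 hepatocyte genes, only APOA1 was matched, at 5.74 to 7.25 TPM at the PP, against 5.72 to 8.88 TPM at the IP.

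To ask which genes of the axis differed between the phases, limma with Benjamini-Hochberg adjustment was run on log2(TPM + 1) for the 10896 loci that reached 1 TPM in at least 3 libraries. All 7 matched genes passed this filter. Fold changes are PP minus IP on this log2 scale, which understates the change of low genes. None of the 7 passed an adjusted p under 0.05 (limma, adjusted p between 0.287 and 0.988), beside 0.147% of all tested loci. At an unadjusted p under 0.05 there was 1 of 7, IGFBP5, beside 6.93% of all tested loci. IGFBP5 was also the only one past the thresholds that the study set, an unadjusted p under 0.05 and a log2 change of 1 or more in size, applied here to log2(TPM + 1), beside 2.24% of all loci that passed them with higher values at the IP. Without both PP replicate 2 and IP replicate 3, 3 of the 7 passed the adjusted threshold, where 28.3% of all loci tested did so. They were IGFBP5 (log2 fold change -2.28), GHR (-1.48) and IGF2R (-1.39), with adjusted p of 0.0254, 0.0313 and 0.0254 in limma. In the same setting these 3 also passed the thresholds of the study, beside 19.5% of all loci in that direction. The phases of 4 of the 7 then did not overlap, beside 71.6% of all loci with the IP above. These 2 libraries were picked for that setting because their profiles were already known to stand near the other phase, so it widens the gap between the phases by its construction.

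A log2 fold change under 0 was found for 6 of the 7 genes, beside 82.6% of all tested loci, and one above 0 for IGFBP6 alone. Their median was -0.15, while the median over all tested loci was -0.25, and 3 of the 7 lay under that median. With median-ratio scaling of the libraries, the median over all loci was 0.0060, and IGF1, IGF1R and IGFBP4 also lay above 0. IGFBP5 stood lowest among the 7 genes and IGFBP6 highest.

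**Figure D1:**
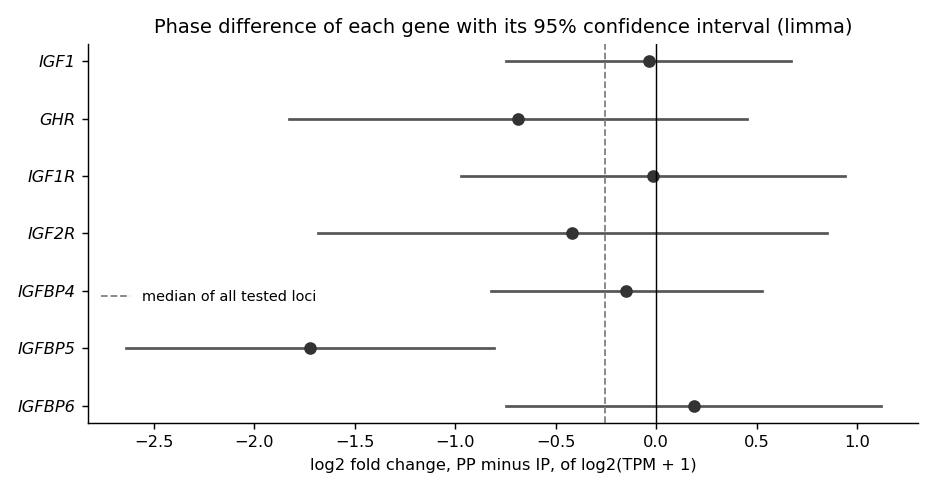
Log2 fold change (PP minus IP, on the log2(TPM + 1) scale) of the 7 genes from limma, with points for the estimate and bars for its 95% confidence interval. The interval of IGFBP5 runs from -2.64 to -0.81, those of the other 6 genes include 0, and the dashed line at -0.25 is the median of all tested loci.

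IGFBP5 encodes a binding protein that mouse myoblasts in culture produce as they differentiate, and it also binds extracellular matrix. In the RefSeq annotation of Sscrofa11.1, which gives all gene positions here, it spans 118861816 to 118877787 of chromosome 15. IGFBP5 had 2.14, 3.32 and 2.13 TPM in PP replicates 1, 2 and 3, against 11.7, 17.3 and 5.59 TPM in IP replicates 1, 2 and 3. The highest PP library thus lay under the lowest IP library, and the spread was far larger at the IP. Libraries of the phases did not overlap in 1 of the 7 genes, with the IP above the PP, beside 10.8% of all tested loci in that direction and 12.8% in both.

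The means of IGFBP5 were 2.53 ± 0.685 TPM at the PP, against 11.5 ± 5.83 TPM at the IP (SD, n = 3 each). Its log2 fold change was -1.72 (standard error 0.40, unadjusted p = 0.00258, adjusted p = 0.287 from limma), which 0.367% of the tested loci lay below. The exact permutation test gave a 2-sided p of 0.1, the smallest that 3 libraries against 3 allow. Scaled by median ratios, IGFBP5 had 2.76 ± 0.191 at the PP and 9.42 ± 2.29 at the IP in scaled TPM (SD, n = 3), and the phases again did not overlap. Over the 18 alternative settings other than the one without both libraries, its adjusted p in limma ran from 0.0638 to 0.9995 and its log2 fold change from -2.12 to -1.07. The fold change was -1.39 without IP replicate 2 and -2.12 without IP replicate 3.

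In a muscle sample, fewer cells of one kind and less RNA in each cell cannot be told apart, so markers of other cells were summed beside IGFBP5. The 6 matched of 8 satellite cell markers summed to 28.3 to 33.4 TPM at the PP, against 39.7 to 63.9 TPM at the IP. The 10 smooth muscle and pericyte markers summed to 138 to 155 TPM at the PP, against 178 to 305 TPM at the IP. In TPM both sums were thus lower in every PP library than in every IP library, as IGFBP5 was, and none of these markers was at 0. In the satellite cell list this separation came from its most abundant gene, ITGA7. Without ITGA7 the sums were 17.8 to 21.3 TPM at the PP, against 21.0 to 26.3 TPM at the IP, and overlapped, and VCAM1 and the other 4 markers each overlapped between the phases. In TPM the smooth muscle list, led by TAGLN and RGS5, stayed apart without any 1 of its 10 genes, of which 2 were apart on their own. The median-ratio size factors were 0.784, 1.12 and 0.826 in PP replicates 1, 2 and 3. In IP replicates 1, 2 and 3 they were 1.17, 1.51 and 0.810. Divided by these factors, the satellite cell sums and the smooth muscle sums each overlapped between the phases, whereas IGFBP5 did not. Sums of 11 fibroblast markers (254 to 432 TPM at the PP, 321 to 556 TPM at the IP) and 10 endothelial markers (59.0 to 73.9 TPM at the PP, 70.5 to 137 TPM at the IP) overlapped between the phases. On their own, 3 of the 11 fibroblast markers and 0 of the 10 endothelial markers were apart with the IP above, beside 10.8% of all tested loci. Those 3 fibroblast markers were the collagen genes of the list, higher in every IP library as IGFBP5 was, whereas DCN, its most abundant marker, overlapped. The part of these cells in the IGFBP5 values was not tested.

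IGFBP6, which prefers IGF2 over IGF1, was the most abundant of the 7 genes on average and spans 18352884 to 18357225 of chromosome 5. It had 45.2, 16.9 and 28.2 TPM in PP replicates 1, 2 and 3, against 16.2, 31.9 and 27.9 TPM in IP replicates 1, 2 and 3. The highest and nearly the lowest values were both at the PP, so the phases overlapped. The means were 30.1 ± 14.2 TPM at the PP, against 25.4 ± 8.15 TPM at the IP (SD, n = 3), with a log2 fold change of 0.19 (95% interval -0.74 to 1.12, adjusted p = 0.856 from limma). Without PP replicate 1 this value was -0.15, and without IP replicate 1 it was -0.09. The 6 matched of 8 adipocyte markers summed to 262 to 535 TPM at the PP, against 259 to 357 TPM at the IP, most of it from FABP4. The FABP4 values were highest in PP replicate 1 (483 TPM) and lowest in IP replicate 1 (177 TPM), as those of IGFBP6 were. The other 5 markers summed to 52.4, 60.4 and 49.1 TPM in PP replicates 1, 2 and 3, against 82.0, 66.3 and 49.4 TPM in IP replicates 1, 2 and 3, and so were highest in the library where IGFBP6 was lowest. The part of adipocytes in the IGFBP6 values was not tested.

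IGFBP4, a binding protein that PAPPA cleaves, spans 21966524 to 21980043 of chromosome 12. It had 5.75, 3.17 and 3.22 TPM in PP replicates 1, 2 and 3, against 5.08, 4.85 and 3.55 TPM in IP replicates 1, 2 and 3. A single PP library, replicate 1, lay above the IP libraries and the other two below them. Its log2 fold change was -0.15 (95% interval -0.82 to 0.53, adjusted p = 0.848 from limma), and without PP replicate 1 the phases of IGFBP4 no longer overlapped (log2 fold change -0.38), beside 14.5% of all loci with the IP above. IGFBP4 varied least among the 7 genes, with 1.81-fold between its highest and lowest library, and IGFBP5 varied most, with 8.08-fold.

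**Figure D2:**
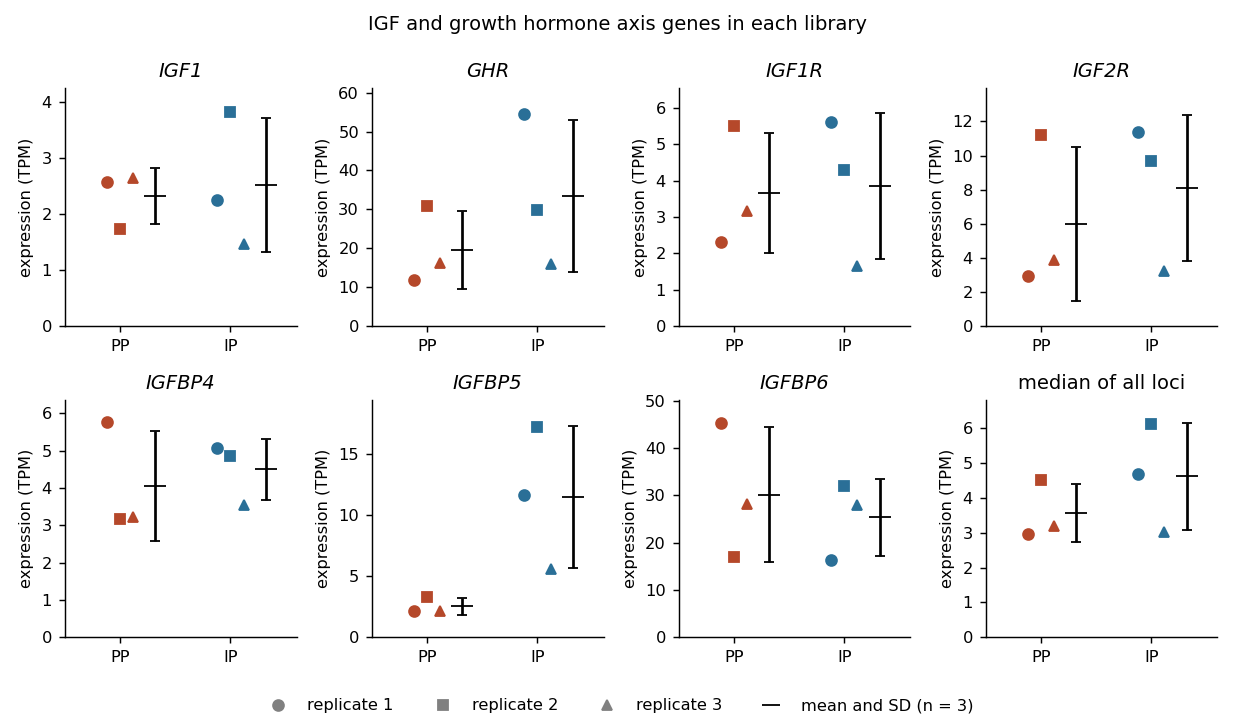
Expression in TPM of each gene in the 3 PP and the 3 IP libraries, with 1 panel per gene and a last panel for the median of all loci. Only IGFBP5 has all PP libraries (2.13 to 3.32 TPM) under all IP libraries (5.59 to 17.3 TPM).

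As a share of the summed TPM of IGFBP4, IGFBP5 and IGFBP6, IGFBP5 made up 4.03%, 14.2% and 6.35% in PP replicates 1, 2 and 3, against 35.4%, 31.9% and 15.1% in IP replicates 1, 2 and 3. The sum itself was 36.7 ± 15.1 TPM at the PP, against 41.4 ± 11.2 TPM at the IP (SD, n = 3), so the totals overlapped while the IGFBP5 share did not. IGFBP6 made up 80.5% ± 7.15 of the sum at the PP and 61.2% ± 13.2 at the IP. A ratio of genes within a library does not depend on how the library was scaled, so 8 such ratios were computed, chosen after the values were seen. IGFBP5 over IGFBP4 was 0.371, 1.047 and 0.662 in PP replicates 1, 2 and 3, against 2.30, 3.56 and 1.57 in IP replicates 1, 2 and 3. IGFBP5 over IGF1 was 0.827, 1.91 and 0.804 in PP replicates 1, 2 and 3, against 5.15, 4.51 and 3.81 in IP replicates 1, 2 and 3. For IGFBP5 over IGFBP6 the highest PP library (0.196) lay just under the lowest IP library (0.2004). The 2-sided exact permutation p was 0.1 for each of these ratios, the smallest possible, or 0.2 after Benjamini-Hochberg adjustment over the 8 ratios.

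**Figure D3:**
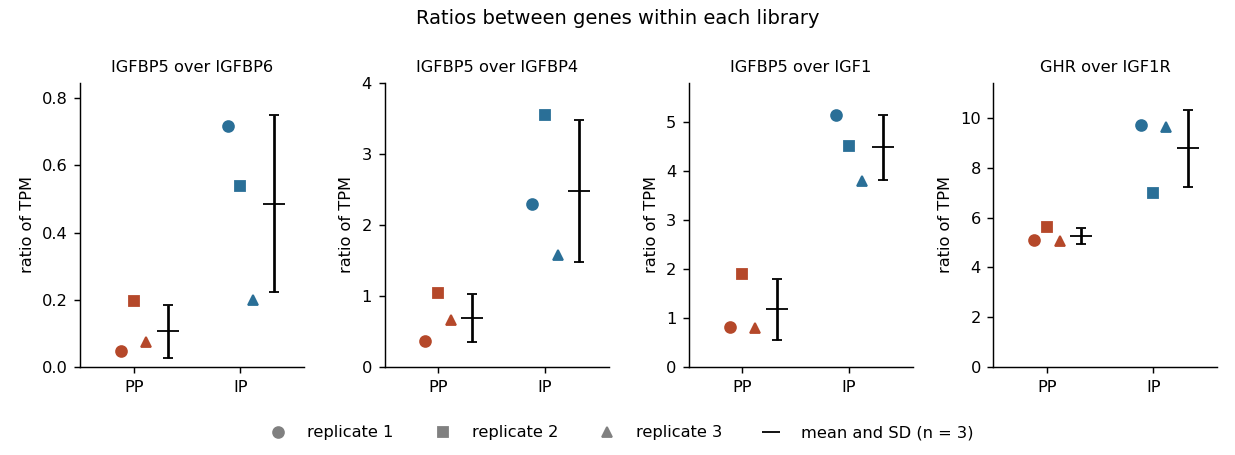
Ratios of the TPM of 2 genes within each library for the 3 PP and the 3 IP libraries, with the mean and SD beside the points. Of the 8 ratios computed, the 4 shown are those whose PP libraries all lay under the IP libraries, narrowly for IGFBP5 over IGFBP6 (0.196 and 0.2004 at the nearest points).

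GHR, the growth hormone receptor, spans 27126300 to 27422618 of chromosome 16. It had 11.8, 31.0 and 16.1 TPM in PP replicates 1, 2 and 3, against 54.5, 29.9 and 16.0 TPM in IP replicates 1, 2 and 3. IP replicate 1 stood above all others, and the remaining libraries of the phases overlapped. The means of GHR were 19.6 ± 10.04 TPM at the PP, against 33.5 ± 19.5 TPM at the IP (SD, n = 3), with a log2 fold change of -0.69 (95% interval -1.83 to 0.45, adjusted p = 0.805 from limma). The value was -0.26 without IP replicate 1 and -1.11 without IP replicate 3, where GHR also passed the thresholds of the study, beside 8.05% of all loci in that direction. Among all loci of the table, GHR stood at percentiles from 79.3 to 86.7 at the PP and from 82.3 to 91.1 at the IP.

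IGF1R, the receptor tyrosine kinase of IGF1, spans 137383623 to 137691038 of chromosome 1. It had 2.32, 5.51 and 3.18 TPM in PP replicates 1, 2 and 3, against 5.62, 4.28 and 1.67 TPM in IP replicates 1, 2 and 3. The lowest library was at the IP and the ranges coincided almost entirely. Its log2 fold change was -0.01 (95% interval -0.97 to 0.94, adjusted p = 0.988 from limma), an interval that leaves room for a difference in either direction. The sign of IGF1R differed under 8 of 18 alternative settings, and median-ratio scaling put it at 0.25.

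IGF2R, also on chromosome 1 (7369485 to 7472480), had 2.94, 11.2 and 3.89 TPM in PP replicates 1, 2 and 3, against 11.4, 9.67 and 3.22 TPM in IP replicates 1, 2 and 3. The libraries fell into a group from 2.94 to 3.89 TPM and a group from 9.67 to 11.4 TPM, and each group held libraries of both phases. The log2 fold change of IGF2R was -0.42 (95% interval -1.68 to 0.85, adjusted p = 0.810 from limma). With a single library left out it ran from -0.09 (without PP replicate 1) to -0.91 (without PP replicate 2), and it was -0.90 without IP replicate 3.

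The 3 receptors shared this split of the libraries in TPM. GHR, IGF1R and IGF2R were each highest in IP replicate 1 and stood higher in PP replicate 2, IP replicate 1 and IP replicate 2 than in PP replicate 1, PP replicate 3 and IP replicate 3. The 3 libraries with high receptor values are also those with the highest median TPM over all loci (4.52, 4.69 and 6.12). Divided by that median, IGF2R was 0.987, 2.48 and 1.22 in PP replicates 1, 2 and 3, against 2.43, 1.58 and 1.07 in IP replicates 1, 2 and 3, so the same 3 libraries still stood highest. For the other receptors that split was lost on division by the median. GHR in IP replicate 2 (4.89) then lay under PP replicate 3 (5.06) and IP replicate 3 (5.30), and IGF1R in IP replicate 2 (0.700) lay under PP replicates 1 (0.780) and 3 (0.999). Whether the library median has a part in the receptor values was not tested. Within libraries, GHR over IGF1R was 5.09, 5.61 and 5.07 in PP replicates 1, 2 and 3, against 9.70, 6.99 and 9.63 in IP replicates 1, 2 and 3. This ratio was lower in every PP library than in every IP library (exact permutation p = 0.1, 0.2 adjusted over the 8 ratios), although neither gene alone separated the phases.

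**Figure D4:**
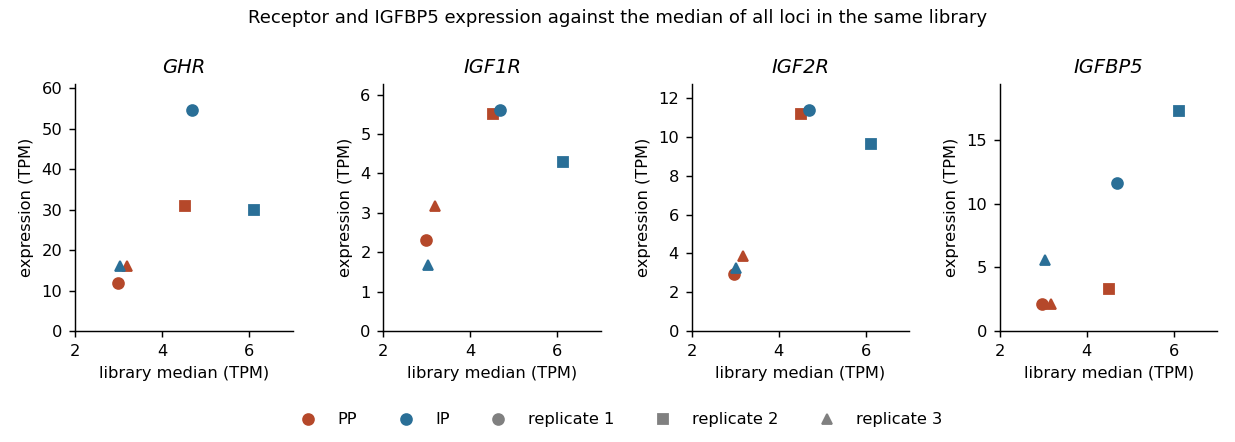
Expression in TPM of GHR, IGF1R, IGF2R and IGFBP5 against the median TPM of all loci in the same library, 1 point per library. The receptors are high in the 3 libraries with medians of 4.52, 4.69 and 6.12 TPM, which include PP replicate 2, whereas IGFBP5 in PP replicate 2 (3.32 TPM) stays under every IP library.

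IGF1, the ligand, spans 81762027 to 81909253 of chromosome 5 and was the lowest of the 7 genes on average (2.42 TPM over all libraries). It had 2.58, 1.74 and 2.65 TPM in PP replicates 1, 2 and 3, against 2.26, 3.82 and 1.47 TPM in IP replicates 1, 2 and 3. The highest and the lowest libraries were both at the IP. The means of IGF1 were 2.33 ± 0.507 TPM at the PP, against 2.52 ± 1.20 TPM at the IP (SD, n = 3), with a log2 fold change of -0.04 (95% interval -0.75 to 0.67, adjusted p = 0.962 from limma). The value was 0.22 with median-ratio scaling and 0.22 without IP replicate 2. IGF1 comprised 7 listed transcripts, against 5 for GHR, 2 each for IGF1R, IGFBP4 and IGFBP5 and 1 each for IGF2R and IGFBP6, and the table gives no value per transcript.

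In order of mean TPM over the 6 libraries, which is corrected for length and so can be compared between genes, the genes stood as IGFBP6 (27.7), GHR (26.6), IGF2R (7.05), IGFBP5 (7.02), IGFBP4 (4.27), IGF1R (3.76) and IGF1 (2.42). The ranges of IGFBP6 and GHR overlap, as do those of IGF2R and IGFBP5, of IGFBP5 and IGFBP4, of IGFBP4 and IGF1R, and of IGF1R and IGF1, while every library of GHR (11.8 TPM at least) lay above every library of IGF2R (11.4 TPM at most). IGFBP5 ranked 3 of 7 in every IP library, and ranked 7, 5 and 7 of 7 in PP replicates 1, 2 and 3. Among all loci of the table it lay at percentiles of 39.0 to 42.1 at the PP and 64.3 to 75.1 at the IP.

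Genes that act with this axis were taken from 6 lists with 83 genes, of which 63 were matched and 57 tested. None of the 57 passed an adjusted p under 0.05 in limma. At an unadjusted p under 0.05, 1 was higher and 5 were lower at the PP, or 6 of 57 beside 6.93% of all tested loci. Their median log2 fold change was -0.36, against -0.25 for all tested loci, and 51 of the 57 (89.5%) lay under 0, as did 82.6% of all tested loci. In TPM the phases did not overlap for 4 of the 57 with the IP above and for 1 with the PP above. Of all tested loci, 10.8% did not overlap with the IP above and 12.8% in both directions.

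Among 16 matched genes of growth hormone receptor signalling, 15 were tested. CISH, a feedback inhibitor that STAT5 induces, had 0.569, 0.607 and 0.658 TPM in PP replicates 1, 2 and 3, against 3.94, 1.59 and 1.499 TPM in IP replicates 1, 2 and 3. All PP values lay under all IP values, with a log2 fold change of -0.98 (standard error 0.30, unadjusted p = 0.0114, adjusted p = 0.477 from limma). PTPN11, the phosphatase SHP2, had a log2 fold change of -0.80 with phases that overlapped in TPM (unadjusted p = 0.0456, adjusted p = 0.709 from limma). With median-ratio scaling the phases of PTPN11 did not overlap (8.99 to 9.05 at the PP, 11.2 to 15.3 at the IP). The most abundant gene of the list was STAT5B, a factor that GHR activates, whose log2 fold change was -0.49 (adjusted p = 0.805 from limma).

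Of 5 matched proteases and protease inhibitors, 3 were tested. HTRA1, a secreted protease that cleaves IGFBP5, had 18.5, 35.8 and 21.8 TPM in PP replicates 1, 2 and 3, against 52.0, 52.1 and 36.5 TPM in IP replicates 1, 2 and 3. PP replicate 2 came close to IP replicate 3 but the phases did not overlap (log2 fold change -0.90, unadjusted p = 0.0185, adjusted p = 0.577 from limma). STC1, which inhibits PAPPA, had 1.40, 1.86 and 1.26 TPM in PP replicates 1, 2 and 3, against 0.933, 0.567 and 0.244 TPM in IP replicates 1, 2 and 3. It was the only one of the 57 with an unadjusted p under 0.05 and higher values at the PP (log2 fold change 0.68, unadjusted p = 0.0204, adjusted p = 0.597 from limma). FURIN, which processes precursor proteins, had a log2 fold change of -0.61 (adjusted p = 0.805 from limma). PAPPA itself was at 0.202 to 0.830 TPM at the PP, against 0.334 to 1.5997 TPM at the IP and did not pass the filter on low values.

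Of 12 matched adaptors and related genes around the insulin receptor, 10 were tested and all 10 had a log2 fold change under 0, where 82.6% of all tested loci did and 8 of the 10 lay under the median of all loci. IRS1, which docks PI3K to both IGF1R and the insulin receptor, had 4.05, 6.67 and 4.21 TPM in PP replicates 1, 2 and 3, against 25.6, 15.2 and 6.25 TPM in IP replicates 1, 2 and 3. IP replicate 3 lay just within the PP range, and the log2 fold change of IRS1 was -1.32 (standard error 0.47, unadjusted p = 0.0235, adjusted p = 0.613 from limma). With median-ratio scaling the phases of IRS1 did not overlap (5.10 to 5.95 at the PP, 7.72 to 21.8 at the IP). On the log2(TPM + 1) scale IRS1 was the only one of the 57 past the thresholds of the study. Of the genes with an unadjusted p under 0.05 in limma, CISH and STC1 also had a ratio of mean TPM above 2. It was 3.83 for CISH (IP over PP) and 2.59 for STC1 (PP over IP), and their log2 changes are held under 1 by the added pseudocount. GRB10, an adaptor that restrains the receptors, and GRB2, which links them to RAS, were the most abundant, with log2 fold changes of -0.86 and -0.42 (both adjusted p = 0.805 from limma).

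Of 25 tested genes of PI3K, AKT and mTOR signalling, 22 (88.0%) had a log2 fold change under 0, 14 lay under the median of all loci, and 1 had an unadjusted p under 0.05. This was EIF4EBP1, a repressor of cap-dependent translation that mTOR inactivates, with 87.5, 114 and 96.1 TPM in PP replicates 1, 2 and 3, against 247, 159 and 158 TPM in IP replicates 1, 2 and 3. Every PP library lay under every IP library (log2 fold change -0.89, standard error 0.25, unadjusted p = 0.00708, adjusted p = 0.415 from limma), but with median-ratio scaling the phases of EIF4EBP1 overlapped. DDIT4, a stress-induced inhibitor of mTOR, had 49.0, 202 and 80.3 TPM in PP replicates 1, 2 and 3, against 196, 52.9 and 113 TPM in IP replicates 1, 2 and 3, and its phases overlapped fully (log2 fold change -0.18). Outside the member set, the binding proteins IGFBP7 and IGFBP2 had log2 fold changes of 0.04 and -0.10 (adjusted p = 0.957 and 0.872 from limma). Of 9 regulators and neighbours of IGF2, M6PR, the other mannose 6-phosphate receptor, and CTCF, which insulates the imprinted IGF2 locus in the mouse, were matched, with log2 fold changes of -0.18 and -0.37 (adjusted p = 0.811 and 0.808 from limma).

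**Figure D5:**
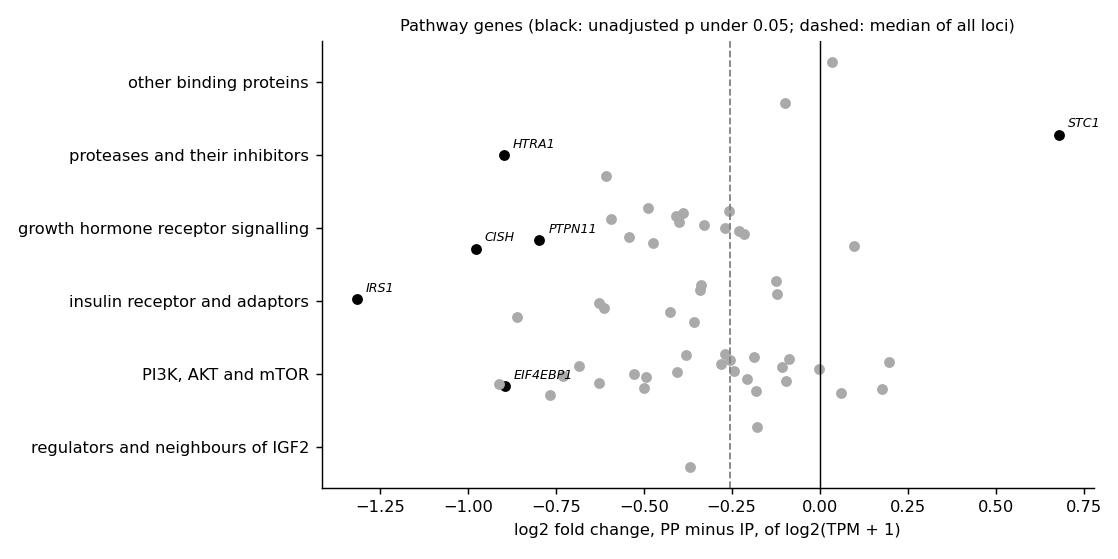
Log2 fold change (PP minus IP) of the 57 tested genes of the 6 pathway lists, 1 point per gene, with genes at an unadjusted p under 0.05 in black and named. Of these 6 genes STC1 alone lies to the right of 0 (0.68), the other 5 lie between -1.32 and -0.80, and the dashed line at -0.25 is the median of all tested loci.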

How the data were processed

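The authors sequenced poly(A)-selected RNA of longissimus dorsi, removed adapter-bearing and poor reads, used TopHat for alignment and Cufflinks for assembly, and deposited TPM per locus, 1 column per library and none pooled. Sscrofa11.1 is the build in the submitters' processing notes, while the methods name an earlier one. The methods call the libraries biological replicates but do not say which pig gave each, so p-values measure the spread between these samples. Symbols came from a table of Ensembl pig identifiers (9764 of 12671 loci), and coordinates and coding sequence from the RefSeq annotation of Sscrofa11.1. Members and gene lists were chosen with earlier results of these data known.

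From the deposited TPM, log2(TPM + 1) values of loci reaching 1 TPM in at least 3 libraries entered a limma fit (limma 3.58.1, R 4.3.3) by eBayes with trend and no block, 2-sided, with Benjamini-Hochberg adjustment. The steps were tested on simulated data. Single values were compared with exact permutation tests (scipy 1.17.1). Reads per locus are not known from TPM, so precision rests on the spread of 3 libraries. Beside all members, the genes named were, per pathway list, those with an unadjusted p under 0.05 and the 2 with the highest mean TPM, and per marker list the 2 highest or any at 0. One gene that this rule takes is not reported here. PAPPA and the ratios were added after seeing values. The 19 alternatives changed the pseudocount, filter, scaling, variance model, block or libraries used.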

Additional observations from a re-analysis of the deposited data

How the results depend on the processing

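IGFBP5 kept its direction in all 19 alternatives run and an unadjusted p under 0.05 in each, but passed the adjusted threshold only without both PP replicate 2 and IP replicate 3. That setting called 3 of the 7 genes and 2862 loci in all, put 3 genes past the thresholds of the study (19.5% of all loci), and left 4 genes without overlap of the phases (71.6% of all loci). The number of loci called, 16, became 4 with a pseudocount of 5, 6 where the mean had to reach 5 TPM, and 3 with the replicate number as a block (replicate block), and ran from 1 to 14 when each library was left out in turn. Leaving out a library gave 1 to 2 genes past the thresholds of the study, beside 1.09% to 8.05% of all loci with higher values at the IP, and 1 to 2 without overlap, beside 11.3% to 40.97% of all loci with the IP above. Same-numbered libraries had correlations of deviations of -0.53, 0.20 and 0.22, so the numbers were not taken as pairs, and the block called none of the 7 genes. The sign of small values depended on the setting. With median-ratio scaling, IGF1, IGF1R and IGFBP4 were at 0.22, 0.25 and 0.12 (log2, PP minus IP), with quantile normalization at 0.23, 0.26 and 0.13, and without the 3 most abundant loci IGF1 and IGF1R were at 0.12 and 0.15. IGF1R was at 0.0035 with a pseudocount of 0.1. With each library left out, IGF1 ran from -0.27 to 0.22, IGF1R from -0.40 to 0.26 and IGFBP6 from -0.15 to 0.53. The causes were not tested. GHR and IGF2R stayed under 0 in all 19 alternatives. Where the mean had to reach 5 TPM, 4 of the 7 genes were tested.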
